A study of Sus scrofa with 12 samples.

Results

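The slow fibre contractile isoforms are the forms of the sarcomere and calcium-handling proteins that slow-twitch muscle fibres use. The 10 members were MYH7, MYL2, MYL3, TNNT1, TNNI1, TNNC1, TPM3, MYOZ2, ATP2A2 and CASQ2, and every probe set whose only gene symbol in the array's annotation table is one of these names was taken. That gave 15 of 24123 probe sets, which stand for 9 of the 10 genes and 9 of the 6765 genes that the table names alone on a probe set. MYOZ2 appears in the table only on 2 probe sets that also carry another gene's symbol, so no value is given for it. The samples were skeletal muscle of pigs taken within a day of birth (day 0) and at days 7, 14 and 21, each with 3 biological replicates on 1 array apiece, 12 Affymetrix porcine arrays in all. Sampling at 4 ages asked how muscle gene expression changes after birth. Which muscle, breed and sex were sampled is not given in the sources used here, and muscles differ in their share of slow fibres.

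Slow fibres contract slowly, resist fatigue and rely on oxidative metabolism. Their thick filaments carry the slow myosin heavy chain with its slow light chains, their thin filaments carry slow troponins, and calcium is pumped back into the sarcoplasmic reticulum by the slow and cardiac calcium pump. Most of these genes are shared with the heart, and in the limb and trunk muscles of young mammals the balance of slow and fast isoforms is still being set after birth, under the influence of motor nerve activity, thyroid hormone and calcineurin signalling. In whole muscle, more slow fibres and more slow mRNA per fibre cannot be told apart.

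Values are signals per probe set, which follow the amount of labelled RNA bound by a group of short probes and are scaled to an equal trimmed mean on every array (500.1). A change is the mean log2 signal at the later age minus that at the earlier age. Its SE comes from limma with 3 arrays per age, so p-values measure the spread between these samples. Adjusted p-values are Benjamini-Hochberg values over all 14399 probe sets tested, with a threshold of 0.05. Of the 15 member probe sets, 14 passed the filter on dim probe sets, and the exception was the second CASQ2 probe set. The number of arrays limits the precision. By their brightest probe sets, muscle markers were bright on every array. CKM, the muscle creatine kinase, lay between 36117 and 60467 and the titin gene TTN between 28694 and 48186. A second TTN probe set had 7214 to 29963, and a second probe set of the marker DES did not pass the filter. Of 8 such markers, 0 were called higher and 2 lower at day 7 against day 0, beside 5.76% and 3.64% of all probe sets. At day 14 these were 1 and 2 (6.74% and 5.6%), and at day 21 they were 1 and 0 (6.61% and 4.9%). Of 4 heart-restricted genes measured, none passed the filter on dim probe sets, and NPPA, NPPB and RYR2 never exceeded 80.0, 114.4 and 88.2. The fourth, cardiac troponin I (TNNI3), reached 503.9, and the summed signal of the 4 genes was 209.8 to 458.9 at day 21, against 39.2 to 179.4 at day 0. The part of heart-type transcripts in the changes below was not tested.

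The day 0 arrays differed from the later ones in their hybridization controls. The hybridization controls had a mean log2 signal of 12.40 to 12.79 on the 9 later arrays, against 12.09 to 12.26 on the day 0 arrays. When arrays were instead scaled to equal hybridization controls, the median change of the tested probe sets at day 21 against day 0 was -0.36, and every change below is relative to the equal trimmed mean. The log2 ratio of 3' to 5' signal of the poly-A spikes, a measure of how complete labelling was, lay between 0.37 and 0.67 on the later arrays. At day 0 this ratio was 0.69, 1.59 and 0.66 in replicates 1, 2 and 3, so only replicate 2 stood far apart. Markers of other cells moved as well. The summed signal of 10 endothelial markers was 7262 to 10760 at day 21, against 6142 to 6987 at day 0, with 3 of the 10 genes called higher and 1 lower, and that of 7 macrophage markers was 2201 to 4237 at day 21, against 1583 to 2301 at day 0, with 2 of the 7 called higher. The sum of 4 satellite cell markers was 1015 to 1307 at day 21, against 542.2 to 855.7 at day 0. Of the 3 that passed the filter, 1 was called higher and 0 lower, with a median change of -0.05, beside 0.02 over all probe sets. The sum of 4 smooth muscle markers was 17057 to 18542 at day 7, against 7300 to 11039 at day 0. At day 7, 2 of the 3 smooth muscle markers that passed the filter were called higher. By day 21 the smooth muscle sum was 8827 to 12119. The macrophage, smooth muscle, fibroblast, adipocyte, lymphocyte and erythroid sums overlapped between day 21 and day 0. The part of labelling or of other cells in the changes of the slow isoforms was not tested, beyond the hybridization control scale given with the genes and a fit that includes the spike ratio, in which 3 member probe sets were called higher and 1 lower at day 21, and 0 higher and 1 lower at both day 14 and day 7, each against day 0.

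The thick filament genes were higher at 3 weeks than at birth. MYH7 encodes the slow myosin heavy chain, the motor that defines type I fibres. Its signal was 18541, 19922 and 30194 at day 0, 29524, 29892 and 24561 at day 7, 42301, 28713 and 35740 at day 14, and 32930, 40622 and 40080 at day 21. All day 21 arrays lay above all day 0 arrays, while day 0 replicate 3 stood just above the day 7 arrays and day 14 replicate 2 lay among them. MYH7 rose by 0.76 ± 0.19 at day 21 against day 0 (adjusted p = 0.0228) and by 0.65 ± 0.19 at day 14 against day 0 (0.0403), but the day 7 change of 0.32 ± 0.19 did not pass (0.320). The F test for any change with age missed the threshold (adjusted p = 0.0614). Leaving out day 0 replicate 1 or 2 or day 21 replicate 2 or 3 ended the day 21 call (change 0.62 to 0.71, adjusted p = 0.0667 to 0.0794), and scaling on the hybridization controls reduced the change to 0.38 (0.176). The day 14 call was lost without any single array (0.0506 to 0.137) other than day 0 replicate 3, day 7 replicate 3, day 14 replicate 2 and day 21 replicate 1.

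MYL2 encodes the slow and ventricular regulatory light chain, which sits at the neck of the myosin head. It had 20785, 19154 and 30872 at day 0, 34891, 38755 and 31053 at day 7, 50906, 39499 and 45519 at day 14, and 41985, 46996 and 50984 at day 21. Every array of every later age was above every day 0 array, although day 7 replicate 3 cleared day 0 replicate 3 by a narrow margin. MYL2 changed with age in the F test (adjusted p = 0.00837), and its mean signal at day 21 was 46655 ± 4509 (SD, n = 3), against 23604 ± 6347 (SD, n = 3) at day 0. The rise was 1.01 ± 0.17 at day 21 (adjusted p = 0.00363), 0.97 ± 0.17 at day 14 (0.00441) and 0.59 ± 0.17 at day 7 (0.0485), each against day 0. The day 21 call held under all 23 alternatives run, down to a change of 0.63 on the hybridization control scale. On the spike ratio fit the day 14 change was 0.73 (adjusted p = 0.0653). The day 7 call was the only member call of the first week, and it was lost in that fit too (0.33, adjusted p = 0.444). It was also lost without any single array other than day 0 replicate 3 (0.0545 to 0.167).

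MYL3 encodes the slow and ventricular essential light chain, the partner of MYL2 on the same myosin neck. Its signal was 12628, 12041 and 19186 at day 0, 17564, 17198 and 14263 at day 7, 26231, 16929 and 21489 at day 14, and 22646, 25559 and 24235 at day 21. The arrays were ordered within each age much as for MYH7, with day 0 replicate 3 high and day 14 replicate 2 low. MYL3 rose by 0.76 ± 0.19 at day 21 against day 0 (adjusted p = 0.0233), and the day 14 change of 0.57 ± 0.19 missed the threshold (0.0679). Leaving out day 0 replicate 1 or 2, or any day 21 array, ended the day 21 call (0.63 to 0.80, adjusted p = 0.0540 to 0.0822), and on the hybridization control scale the change was 0.38 (0.204). Without day 0 replicate 3 or without day 14 replicate 2, MYL3 was also called at day 14 (0.78, adjusted p = 0.00993, and 0.73, 0.0454).

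**Figure D1:**
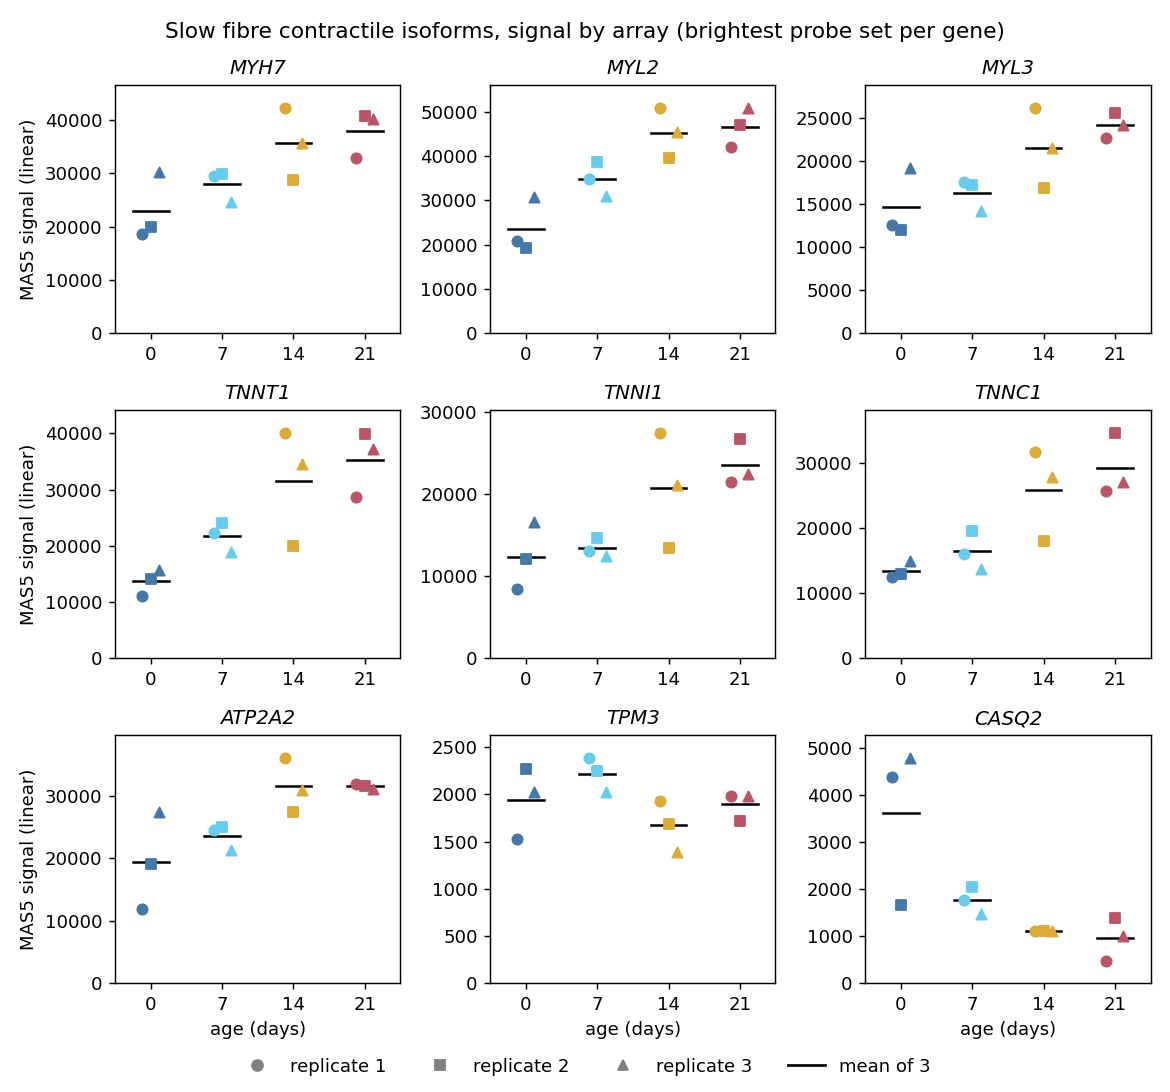
Signal of the brightest probe set of each of the 9 measured genes on the 12 arrays, by age in days (linear MAS5 signal). The vertical axis starts at 0. Symbols mark the replicate number, used here to name an array and not to link animals across ages. Black lines are means of 3 arrays. The day 21 signals of 7 genes all lie above their day 0 signals, those of CASQ2 all lie below, and those of TPM3 overlap.

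The slow troponin genes were also higher at 3 weeks than at birth, and TNNT1 and TNNC1 had the 2 largest rises among the members. TNNT1 encodes slow troponin T, which ties the troponin complex to tropomyosin. It had 11080, 14187 and 15788 at day 0, 22374, 24161 and 18984 at day 7, 40150, 19916 and 34499 at day 14, and 28763, 39970 and 37232 at day 21. No day 0 array reached the lowest later array, and day 14 replicate 2 stayed at the level of day 7. TNNT1 changed with age (F test adjusted p = 0.00968) and rose by 1.37 ± 0.23 at day 21 against day 0, a linear ratio of 2.58 (adjusted p = 0.00344). At day 14 the rise was 1.16 ± 0.23 (adjusted p = 0.00775), and the day 7 change of 0.68 ± 0.23 did not pass (0.0835), except without day 14 replicate 2 (0.0317). The day 21 call held under all 23 alternatives, with changes from 0.99 to 1.51. The day 14 call was lost only with the spike ratio in the fit (1.14, adjusted p = 0.0608).

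TNNC1 encodes the slow and cardiac troponin C, the calcium sensor of the thin filament. Its signal was 12509, 13058 and 14920 at day 0, 16047, 19585 and 13825 at day 7, 31832, 18038 and 27935 at day 14, and 25810, 34745 and 27204 at day 21. The day 0 arrays were tightly grouped (13496 ± 1264, SD, n = 3) and overlapped with day 7, whereas all day 21 arrays lay above both. TNNC1 changed with age (F test adjusted p = 0.0107), with 1.11 ± 0.20 at day 21 (0.00517) and 0.91 ± 0.20 at day 14 (0.0132), each against day 0, and 0.28 ± 0.20 at day 7 (0.426). The day 21 call held under all 23 alternatives, and leaving out day 14 replicate 3 ended the day 14 call (0.83, adjusted p = 0.0561). That call was also lost with the spike ratio in the fit (0.80, adjusted p = 0.112), on the hybridization control scale (0.54, 0.115) and with only the arrays compared.

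TNNI1 encodes slow troponin I, the inhibitory subunit. It had 8438, 12152 and 16637 at day 0, 13043, 14732 and 12424 at day 7, 27523, 13504 and 21196 at day 14, and 21545, 26775 and 22475 at day 21. Day 0 was widely spread, and the day 7 arrays all fell inside the day 0 range. TNNI1 rose by 0.98 ± 0.26 at day 21 against day 0 (adjusted p = 0.0267), with 0.74 ± 0.26 at day 14 (0.0756) and 0.16 ± 0.26 at day 7 (0.742). Leaving out day 0 replicate 1 or 2, or any day 21 array, ended the day 21 call (0.72 to 1.04, adjusted p = 0.0592 to 0.0850) and on the hybridization control scale (0.60, 0.132). At day 14 it was called only without day 0 replicate 3 (0.97, adjusted p = 0.0223) or without day 14 replicate 2 (1.02, 0.0265).

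TPM3 encodes the slow skeletal tropomyosin, which covers the myosin-binding sites on actin, but the same gene also makes non-muscle tropomyosins in most cells. Its brightest probe set read 1528, 2265 and 2022 at day 0, 2388, 2248 and 2023 at day 7, 1931, 1689 and 1395 at day 14, and 1988, 1717 and 1988 at day 21. The day 0 and day 21 ranges overlapped. None of the 3 TPM3 probe sets was called in any comparison, except that on the hybridization control scale the brightest was lower at day 14 against day 0 (-0.57, adjusted p = 0.0438, against -0.21 and 0.492 on the trimmed mean scale). On the trimmed mean scale the changes at day 21 against day 0 were -0.01 ± 0.18, -0.02 ± 0.19 and 0.53 ± 0.51 in order of brightness. Which of its transcripts each probe set reads is not given in the sources used here.

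ATP2A2 encodes SERCA2, the calcium pump of the sarcoplasmic reticulum in slow fibres and heart, with a second splice form made in most cells. The brightest of its 4 probe sets had 11886, 19085 and 27339 at day 0, 24443, 24997 and 21297 at day 7, 36044, 27443 and 30933 at day 14, and 31915, 31590 and 31115 at day 21. The SD was 1.28% of the mean at day 21, against 39.8% at day 0, and every day 14 and day 21 array exceeded every day 0 array. This probe set rose by 0.78 ± 0.23 at day 21 (adjusted p = 0.0402) and by 0.77 ± 0.23 at day 14 (0.0414), each against day 0. The day 21 call was lost on leaving out any of 9 single arrays, all but day 0 replicate 3 and day 14 replicates 1 and 2 (change 0.47 to 0.81, adjusted p = 0.0515 to 0.104). The day 14 call was lost without any array but day 0 replicate 3 (0.0524 to 0.125), and without that array the day 7 change also passed (0.64, adjusted p = 0.0368). The day 21 change on the hybridization control scale was 0.40 (0.199). The 3 dimmer ATP2A2 probe sets were not called, with day 21 changes of 0.05 ± 0.24, -0.07 ± 0.28 and -0.46 ± 0.47, so the gene's probe sets disagree.

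CASQ2 encodes cardiac calsequestrin, which binds calcium inside the sarcoplasmic reticulum of heart and slow fibres, and it went the other way. Its brighter probe set read 4377, 1661 and 4793 at day 0, 1776, 2046 and 1476 at day 7, 1110, 1111 and 1116 at day 14, and 476.0, 1381 and 1014 at day 21. Day 0 replicate 2 had already the level of day 7, while all arrays of days 14 and 21 lay below all day 0 arrays. CASQ2 changed with age (F test adjusted p = 0.0293) and fell by 1.90 ± 0.40 on the log2 scale at day 21 against day 0 (adjusted p = 0.00912) and by 1.55 ± 0.40 at day 14 (0.0224). The day 7 change of -0.90 ± 0.40 did not pass (0.174), except without day 0 replicate 2 (-1.39, 0.0370) or once the spike 3' to 5' ratio was fitted (0.0415). The day 21 call was lost only when the 6 arrays compared were fitted alone (0.0551), and the day 14 call without day 0 replicate 1 or 3 or any day 14 array (-1.56 to -1.28, 0.0541 to 0.0692). In the F test, CASQ2 missed the threshold without any one of day 0 replicates 1 and 3, day 14 replicate 3 and day 21 replicate 3 (0.0513 to 0.0958). It also missed with no variance trend (0.0584) and with a replicate block (0.0559). The second, dim CASQ2 probe set was left out of the fit and had 67.3, 48.9 and 104.2 at day 0, against 2.90 to 60.5 on the later arrays.

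**Figure D2:**
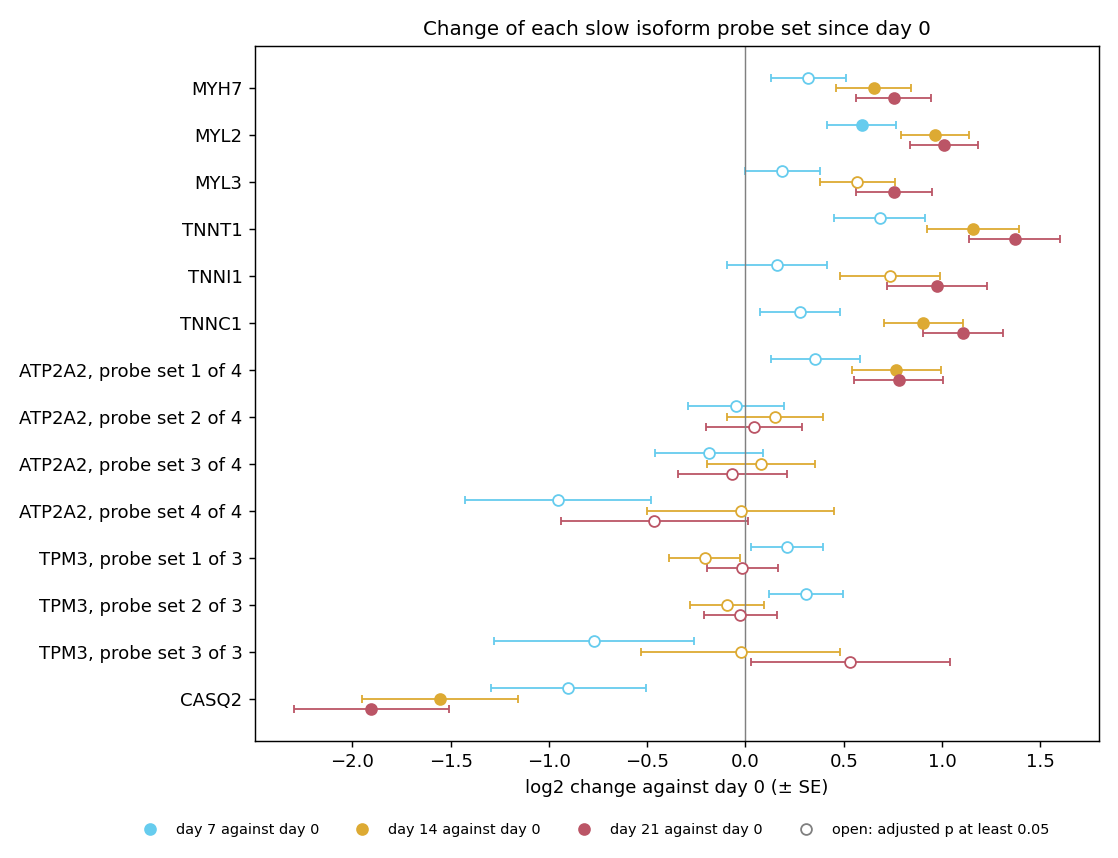
Log2 change (± SE, limma, 3 arrays per age) of the 14 member probe sets that passed the filter, at days 7, 14 and 21 against day 0, with filled points where the adjusted p is under 0.05; probe sets of a gene are numbered from the brightest. The 3 series share the day 0 arrays. The thick filament and troponin genes lie to the right of 0, CASQ2 lies to the left, and the dimmer ATP2A2 probe sets and TPM3 have open points on both sides of 0.

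Counted over the 14 probe sets, 7 rose and 1 fell between day 0 and day 21, where 6.61% of all probe sets tested were higher and 4.9% lower. At day 14 against day 0, 5 rose and 1 fell, beside 6.74% higher and 5.6% lower among all probe sets. That split became 2 higher (MYL2 and TNNT1) and 2 lower (CASQ2 and TPM3) on the hybridization control scale, and 0 higher and 1 lower (CASQ2) with the spike ratio in the fit. At day 7 against day 0, 1 rose (MYL2) and 0 fell, beside 5.76% and 3.64%. Taking both directions together, 11.5% of all probe sets were called at day 21, 12.3% at day 14 and 9.4% at day 7, each against day 0. These 3 comparisons share the day 0 arrays. The F test over all ages called 4 of the 14 (MYL2, TNNT1, TNNC1 and CASQ2), beside 8.88% of all probe sets. The median change of the 14 at day 21 against day 0 was 0.64, and 0.02 over all probe sets tested. The count of 8 at day 21 went down to 4 without day 0 replicate 1, day 0 replicate 2, day 21 replicate 2 or day 21 replicate 3, and to 5 without day 21 replicate 1. The count of 6 at day 14 went down to 3 without day 0 replicate 1 or day 14 replicate 1, and to 2 without day 14 replicate 3. Without day 0 replicate 3 or day 14 replicate 2 the F test called 7.

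The ages after birth could also be set against each other without the day 0 arrays. At day 21 against day 7, TNNC1 was higher by 0.83 ± 0.20, TNNI1 by 0.81 ± 0.26, TNNT1 by 0.69 ± 0.23, MYL3 by 0.57 ± 0.19 and MYH7 by 0.44 ± 0.19. CASQ2 had 0.499 of its day 7 signal (adjusted p = 0.692). All day 21 arrays lay above all day 7 arrays in 7 of the 9 genes, read by their brightest probe sets, and below them in CASQ2 and TPM3. Over all probe sets, 8.49% were separated upward and 7.57% downward. The TPM3 probe sets disagreed here, with -0.23 ± 0.18, -0.33 ± 0.19 and 1.30 ± 0.51 in order of brightness (adjusted p = 0.897, 0.813 and 0.687). None of the 14 probe sets passed in limma after adjustment (lowest adjusted p = 0.424, for TNNC1), although 8 had an unadjusted p under 0.05, and over all probe sets 0.00694% were called in this comparison. At day 14 against day 7 limma called 0 (4 at an unadjusted p under 0.05), beside 0.00694% of all probe sets, and at day 21 against day 14 it called 0 (0 at an unadjusted p under 0.05), beside 0%. In order of level, day 0 was lowest and day 21 highest for the 7 rising genes, and no neighbouring ages differed past the threshold other than days 7 and 0 in MYL2.

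Separation of the 3 arrays of one age from the 3 of another, read by the brightest probe set of each of the 9 genes, was counted as well. At day 21 against day 0 the later arrays lay wholly above in 7 genes and wholly below in 1, where 15.3% of all probe sets were separated upward and 13.7% downward (29.1% in all). At day 14 against day 0 the counts were 4 and 1, beside 15.5% and 13.9% (29.5% in all). At day 7 against day 0 they were 2 (MYL2 and TNNT1) and 0, beside 14.9% and 13.7% (28.5% in all). Without day 0, they were 2 and 2 at day 14 against day 7, beside 6.81% and 7.33% (14.1% in all), and 0 and 0 at day 21 against day 14, beside 4.41% and 4.03% (8.44% in all). At day 21 against day 7, with 7 and 2, the share over all probe sets was 16.1%.

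The pace of the change was also tested directly, as the third week's change minus the first week's. It was -0.55 ± 0.24 for MYL2 (adjusted p = 0.278), -0.47 ± 0.33 for TNNT1 (0.499) and 0.08 ± 0.36 for TNNI1 (0.940), and 0 of 14 probe sets passed in limma (1 at an unadjusted p under 0.05), beside 0.889% of all probe sets. Without day 0 replicate 3 the difference for MYL2 was -0.76 ± 0.19 and passed (0.0490).

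Arrays of the same age ranked alike across most slow genes. At day 14, replicate 2 had the lowest signal of the 3 arrays in 7 of the 9 genes, among them all 6 myosin and troponin genes, where its median deviation from the age mean was -0.40. It was the lowest in 35.5% of all probe sets tested. Replicate 1 of that age was the highest in 8 of 9, beside 34.9% of all probe sets. Day 14 replicate 2 had the highest signal of its age in 9 of 9 fast isoform genes, with a median deviation of 0.16, and in 32.6% of all probe sets. At day 0, replicate 3 was highest in 8 of 9 slow genes, with a median deviation of 0.43, and in 9 of 9 fast genes (0.26), beside 33.6% of all probe sets. Day 21 replicate 1 was lowest in 7 of 9 slow genes and 9 of 9 fast genes, beside 31.9% of all probe sets, but highest in 2 slow genes, ATP2A2 and TPM3. Differences between animals and between array preparations cannot be told apart here. The heart-restricted TNNI3 had 37.7, 9.30 and 40.2 at day 0, 38.1, 152.2 and 24.6 at day 7, 314.0, 16.2 and 503.9 at day 14, and 39.2, 280.4 and 345.7 at day 21. It too was low in day 14 replicate 2 and did not pass the filter.

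**Figure D3:**
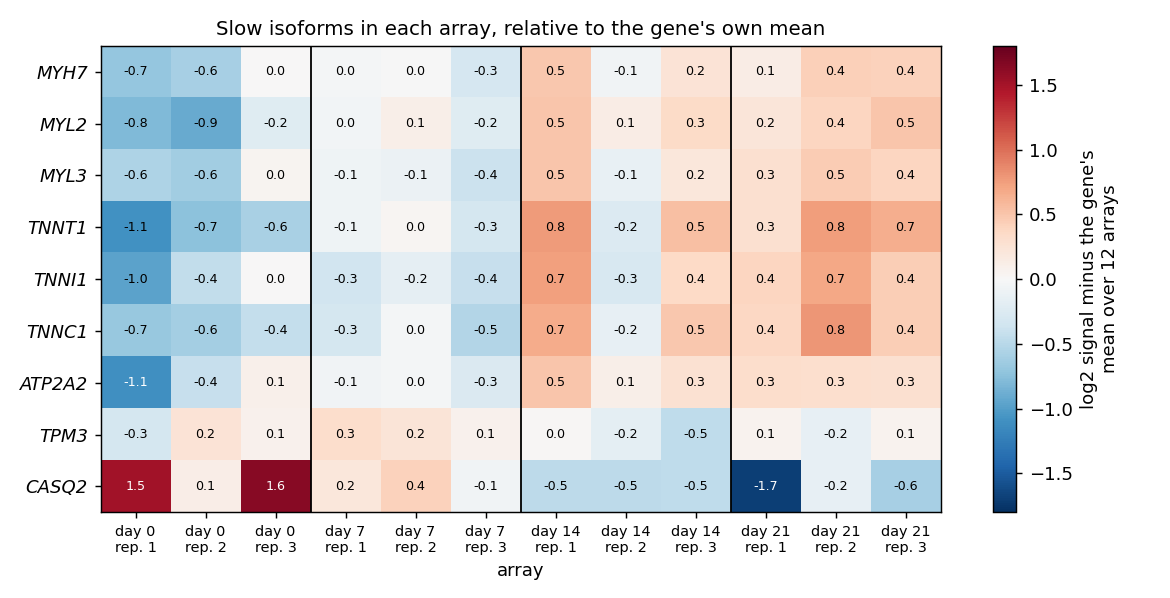
Log2 signal of each gene's brightest probe set on each array minus that gene's mean over the 12 arrays (colour and printed value), with arrays ordered by age and replicate number. Day 14 replicate 2 is paler or bluer than the other day 14 arrays in the 6 myosin and troponin genes, day 0 replicate 3 is near the overall mean in MYH7, MYL3 and TNNI1, where the other day 0 arrays are low, and CASQ2 runs opposite to the 7 genes that rose, while TPM3 shows neither pattern.

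Each slow protein has a fast counterpart, and the log2 difference between the 2 within an array does not depend on how that array was scaled as a whole. Only changes of this difference with age are read here, not its level. Of the 8 pairs with both genes measured, 2 differed between the 9 later arrays and the 3 day 0 arrays (exact two-sided permutation test over 220 splits, adjusted over the 8 pairs). MYH7 minus MYH2, the fast oxidative (IIa) myosin heavy chain, changed by -2.07 on the later arrays (exact permutation p = 0.00455, the smallest the splits can give, adjusted 0.0182), in 9 of 9 later arrays. MYH2 had 5403, 6748 and 15661 at day 0 and was between 43922 and 62403 on all later arrays. MYL2 rose relative to MYLPF, the fast regulatory light chain, by 0.57 (exact permutation p = 0.00455, adjusted 0.0182), again in 9 of 9 later arrays. The heavy chain and the regulatory light chain pairs moved in opposite directions.

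The other 6 pairs did not pass. TNNT1 minus TNNT3 was higher by 0.65 on the later arrays (exact permutation p = 0.0318, adjusted 0.0848), ATP2A2 minus ATP2A1 by 0.47 (0.0455, adjusted 0.0909), TNNC1 minus TNNC2 by 0.42 (0.186, adjusted 0.248), TNNI1 minus TNNI2 by 0.37 (0.286, adjusted 0.286) and MYL3 minus MYL1 by 0.22 (0.232, adjusted 0.265). TPM3 minus TPM1 differed by -0.37 (0.0955, adjusted 0.153). These values average over the later ages, and single ages were not tested. At days 7, 14 and 21 against day 0, TNNT1 minus TNNT3 stood at 0.33, 0.77 and 0.85. TNNC1 minus TNNC2 stood at -0.0006, 0.50 and 0.76, and TNNI1 minus TNNI2 at -0.07, 0.52 and 0.65. In the 3 troponin pairs day 14 replicate 2 lay within the range of the day 0 arrays, and TNNT1 minus TNNT3 passed when it was left out (0.73, adjusted p = 0.0323), without day 7 replicate 1 or 3 (0.70 in both, adjusted 0.0485), or after quantile normalization (0.80, adjusted 0.0242). With any 1 of the day 0 arrays left out the test has fewer splits, and neither of the 2 called pairs passed (adjusted 0.0727). Even at the smallest p these splits can give, 2 pairs alone could not pass after adjustment. The test therefore cannot show whether the calls depend on 1 day 0 array. MYH7 minus MYH2 was -2.31 to -1.90 and MYL2 minus MYLPF 0.43 to 0.69 in these runs.

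**Figure D4:**
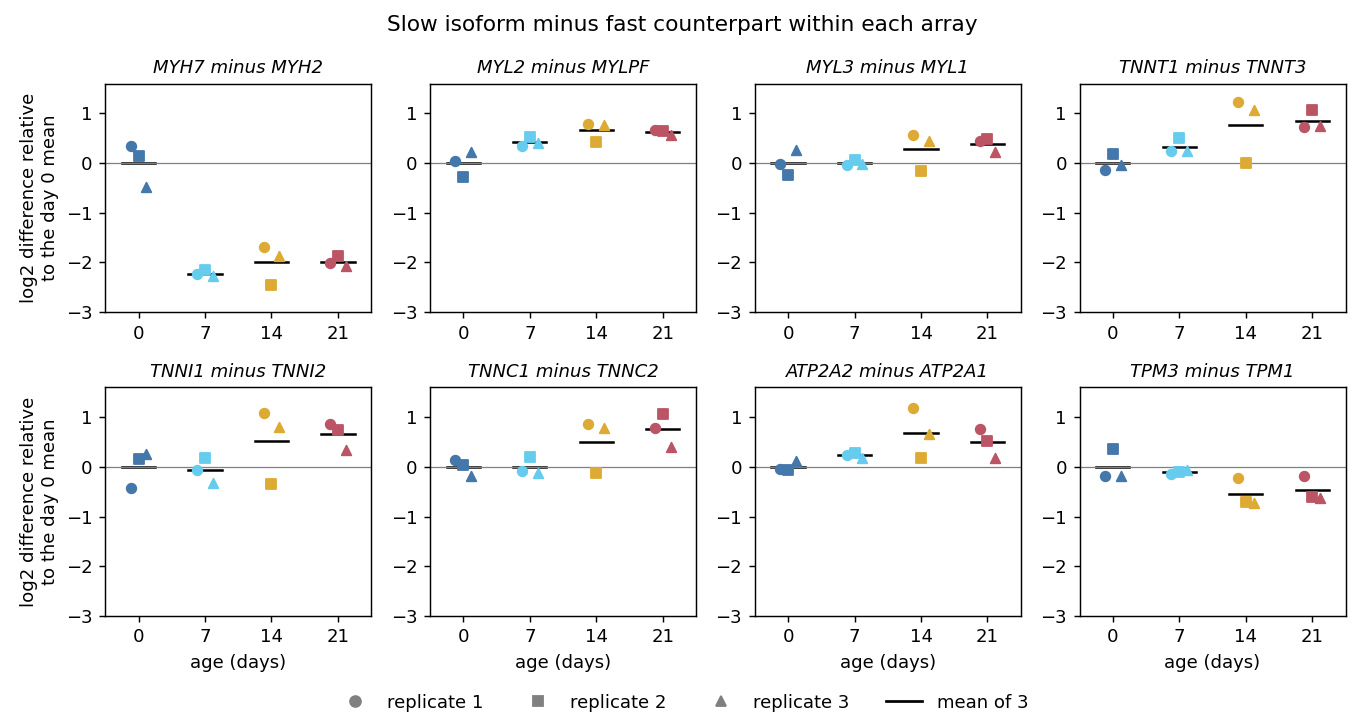
Log2 signal of each slow isoform minus that of its fast counterpart within the same array, relative to the mean of the day 0 arrays, by age in days for the 8 pairs; symbols mark replicates and black lines are means of 3 arrays. MYH7 minus MYH2 lies about 2 log2 units lower at every later age, MYL2 minus MYLPF lies above 0 on all 9 later arrays, and the troponin pairs show a wide spread at day 14.

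Of 9 fast isoform genes measured, 3 rose between day 0 and day 21 (MYH2, TNNT3 and MYOZ1) and 0 fell, beside 6.61% higher and 4.9% lower among all probe sets, with a median change of 0.38 beside 0.02. MYH2 rose by 2.74 ± 0.28 and TNNT3, fast troponin T, by 0.52 ± 0.14 (adjusted p = 0.000482 and 0.0297). MYLPF stood at 0.38 ± 0.13 (0.0805).

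Among 20 other genes linked to slow fibres, 11 had a probe set, and 2 of these changed with age in the F test, beside 8.88% of all probe sets. CA3 encodes carbonic anhydrase III, an abundant enzyme of slow fibres. It had 6117, 3648 and 11826 at day 0 and between 22477 and 32354 on the later arrays, and rose by 2.04 ± 0.30 at day 7 (adjusted p = 0.00212) and 2.25 ± 0.30 at day 21 (0.00104), each against day 0. SLN encodes sarcolipin, a small peptide that regulates the calcium pump. It had 31486, 26557 and 30575 at day 0 and 36084 to 49635 later, and rose by 0.54 ± 0.13 at day 21 against day 0 (0.0175). Both genes were named because they passed the F test on these arrays (adjusted p = 0.00218 for CA3 and 0.0488 for SLN). That CA3 and SLN stood clear of day 0 on all 9 later arrays is therefore no further support. At day 21 against day 0, 2 of the 11 genes rose and 0 fell, beside 6.61% and 4.9% of all probe sets, with a median change of 0.01 beside 0.02. The slow myosin-binding protein C gene MYBPC1 (0.26 ± 0.19, adjusted p = 0.403) and the pump inhibitor phospholamban, PLN (0.92 ± 0.43, 0.183), did not pass. Neither did genes with a change below 0, among them LMCD1 (-0.87 ± 0.36, 0.133), ACTN2 (-0.23 ± 0.13, 0.286) and FHL1 (-0.10 ± 0.17, 0.732).

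Of 35 regulators of the slow programme, 18 had a probe set and 16 passed the filter. Between day 0 and day 21, 3 rose and 1 fell, beside 6.61% and 4.9% of all probe sets, with a median change of 0.42 beside 0.02. CAMK2G, a calcium and calmodulin dependent kinase subunit, had 539.1, 1010 and 1213 at day 0 and 2365 to 3702 later (1.89 ± 0.24, adjusted p = 0.00104). MEF2A, a transcription factor that activates muscle genes, had 1098, 1389 and 1233 at day 0 and 1629 to 2157 later (0.68 ± 0.15, 0.0109). Both were higher on every later array than on any day 0 array, but they too were named for passing the F test on these arrays. PPP3CB, a catalytic subunit of the phosphatase calcineurin, rose by 0.66 ± 0.16 (0.0184), and RCAN1, an inhibitor of calcineurin, fell by 2.14 ± 0.52 on the log2 scale (0.0197). Both missed the threshold in the F test (adjusted p = 0.0675 and 0.0524). PPP3CA, another catalytic subunit, stood at 0.44 ± 0.22 at day 21 against day 0 (0.207). PPARGC1A, the coactivator PGC-1 alpha, stood at -0.75 ± 0.36 (0.197).

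The genes whose pattern over the 12 arrays was most like that of MYH7 were mostly other members. MYL3 (Pearson r = 0.977), MYL2 (0.957), TNNT1 (0.943) and TNNI1 (0.940) led, followed by PRDX2, a peroxiredoxin (0.931), among tested probe sets with a single gene symbol. For CASQ2 the 5 most alike were SFXN4 (0.932), GART, an enzyme of purine synthesis (0.931), the RNA-binding protein genes HNRNPF (0.903) and SSB (0.900), and FBXW7, a ubiquitin ligase subunit (0.888), none of them a member. These correlations describe arrays that share age and scaling and carry no test.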

How the data were processed

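The authors deposited 1 linear intensity signal per probe set and array, summarised by MAS5 (version not given), per the submitters' processing notes. The signals were taken as log2 without further normalization. Of 24123 probe sets, 124 controls and the lowest 40% of the rest by mean log2 signal (limit 90.3) were left out, leaving 14399. Gene symbols came from the platform's annotation table, in which 10099 probe sets carry 1 symbol, 198 several and 13826 none, and all 9 measured members had the same symbol in RefSeq by Entrez identifier. A mean per age was fitted over all 12 arrays in limma 3.58.1 (R 4.3.3), moderated by eBayes with a mean-variance trend, and figures were drawn with matplotlib 3.10.9. Where a gene needed 1 value, its brightest probe set was used.

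The members, lists and tests were chosen with earlier results of these data known. All member probe sets were described, along with the fast counterpart of each, up to 5 called genes each of the other slow fibre genes and of the regulators in order of F test p, and the 5 genes most like MYH7 and CASQ2. Genes of these lists that did not pass, with PPP3CB and RCAN1, were named after their values were seen. Alternatives were the filter, the scaling, an offset, the variance model, array weights, a replicate block, the 3' to 5' ratio of the poly-A spikes as a term, only the arrays compared, and each array left out. On simulated data for 14399 probe sets, the fit for day 21 against day 0 recovered 34 of 100 changes of 2-fold and 87 of 100 of 4-fold, and called 7 unchanged ones. Far fewer probe sets were changed there than the 1657 called in the data, and the adjusted p-value depends on that number. These shares therefore do not tell what part of real changes the main fit finds.

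The 2 most similar arrays correlated at 0.954 and shared 0.0764% of equal signals, so none was a duplicate.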

Additional observations from a re-analysis of the deposited data

How the results depend on the processing

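The calls on MYL2, TNNT1 and TNNC1 at day 21 against day 0 held under all 23 alternatives, and no called member changed direction under any. For day 21 against day 0 the count of 8 called member probe sets became 4 on the hybridization control scale, 4 with no variance trend, 4 with the spike ratio in the fit and 3 with only the arrays compared, and ran from 4 to 8 when 1 array was left out. For day 14 against day 0 the count of 6 became 1 with the spike ratio (0 higher, 1 lower) and 3 with only the arrays compared, and ran from 2 to 7 without 1 array. The single call of day 7 against day 0 was lost (0) with no filter, median centring, the hybridization controls, no variance trend, array weights, the replicate block and only the arrays compared. With the spike ratio MYL2 was lost as well, and the count stayed at 1 because CASQ2 was called lower instead. The count was 0 to 2 without 1 array. The F test count of 4 became 7 with the stricter filter, 2 on the hybridization controls and 1 with the spike ratio, and 3 to 7 without 1 array. The difference between weeks gave 0 to 1 calls without 1 array. The 3 comparisons among days 7, 14 and 21 gave 0 calls throughout. Of the slow and fast pairs 2 were called, 0 to 3 without 1 array. The count of 0 came only without a day 0 array, where 2 pairs alone could not pass. In the F test, MYL2 and TNNC1 missed the threshold on the hybridization controls (adjusted p = 0.0516 and 0.0662), as did MYL2, TNNT1 and TNNC1 with the spike ratio (0.0679, 0.0679 and 0.0596). The cause of these shifts was not tested, except that fewer arrays give fewer degrees of freedom or splits.

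The replicate block changed the counts to 3 in the F test, 7 at day 21, 4 at day 14 and 0 at day 7, each against day 0. Among the pairs it gave 0, with both called pairs at an adjusted p of 0.0625 when arrays were permuted within replicate numbers. Such a permutation has too few splits for 2 pairs alone to pass after adjustment, so it cannot show a loss of the calls. Same-numbered arrays of different ages did not deviate together (correlations of deviations from the age means -0.20 to 0.11 over 18 pairs). The main fit therefore did not pair them, but these correlations cannot show whether same-numbered animals were related. Only 2 of 12 arrays correlated best with an array of their own number. With all probe sets, the split at day 21 against day 0 was 952 higher and 705 lower, 397 and 2486 on the hybridization controls, and 739 and 1032 with median centring.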
